A study of Drosophila melanogaster with 8 samples.

Results

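The genes described here are 9 serine proteases and protease homologues that the sperm storage organs of *Drosophila melanogaster* females secrete: Send1, Send2, CG17234, CG17239, CG31681, CG32277, CG32833, CG32834 and CG9897. They were chosen by name, and each was measured by 1 probe set annotated to that gene alone. They are 9 of the 11983 genes that the arrays measured in this way. The study asked how the transcripts of females differ shortly after mating with a male of their own strain or of another strain. RNA came from 8 pools of whole flies, each hybridised to its own Affymetrix GeneChip array for Drosophila. In 4 pools (ZxZ) the females had mated with SZ males, and in 4 pools (ZxM) with LHM males, a large outbred population of the cosmopolitan M strain. All females were SZ, a composite population that was bred by mixing the Zimbabwe isofemale lines ZS2, ZS11, ZS53, ZS56, ZH12 and ZH32, which discriminate strongly against M males. A pool held 8 females that were virgin until the experiment, were 7 days past eclosion and mated one by one, and were frozen 30 minutes after copulation ended, so that 64 females were measured in all. Both groups were mated and unmated females were not analysed here, so no value here is a response to mating as such.

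The females of this species keep sperm in a pair of mushroom-shaped spermathecae and in a tubular seminal receptacle. Secretory cells around the spermathecal capsule and in the parovaria release proteins into the tract, and these cells are needed for sperm storage and for ovulation. Serine proteases of the trypsin type cut other proteins by means of a catalytic triad of histidine, aspartate and serine. Homologues have the same fold but lack a residue of the triad, and are thought to bind or regulate rather than to cut. Send1 and Send2 take their names from spermathecal endopeptidase, and their promoters are widely used to drive transgenes in the spermathecal secretory cells. In mated females several seminal proteins are cut inside the tract, which is one reason for the interest in proteases that the female supplies herself. Because whole flies were pooled, fewer cells of a type and less RNA per cell cannot be told apart, and the same genes may also be transcribed in other tissues.

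By the numbering of the protease family in the gene table (assembly Release 6 plus ISO1 MT), Send1, CG17234, CG17239, CG31681 and CG32277 are listed as proteases. CG32833, CG32834 and CG9897 are listed as homologues, and Send2 has a number of both kinds. The genes lie in clusters. On chromosome arm 2L, CG17239, CG17234 and Send1 follow each other directly, beside the protease gene Ser12, and CG31681 lies a little further along next to CG4271. Send2 stands alone on the same arm, beside mTTF, which encodes a mitochondrial transcription termination factor. On 2R, CG32834 and CG32833 overlap, and CG9897 comes next, inside the span of twi, the mesoderm determinant. CG32277 is on 3L beside 2 other protease genes, CG33159 and CG33160. CG32833 and CG32834 share a family number and older model names in that table, so the assignment of their probe sets rests on the present annotation.

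The arrays resembled each other closely, and pairs of them correlated at 0.996 to 0.998 over all probe sets. As markers of female tissue, the mean of the yolk protein genes Yp1, Yp2 and Yp3 lay at 14.75 to 14.91 in ZxZ and 14.57 to 14.78 in ZxM, near the top of the scale, which ran from 6.05 to 15.15. Transcripts of the male accessory gland were near the bottom of that scale, with 12 of 15 averaging below 7, and so were 10 of 11 testis transcripts. Levels are log2 values after the authors' variance stabilisation, in which differences between low values are compressed. A level cannot be set against that of another probe set, so the genes are compared across pools and not with each other. Differences are ZxZ minus ZxM throughout.

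None of the genes separated the matings. Of the 9 genes, 8 were variable enough to be tested, and 0 of 8 passed the 10% false discovery rate of limma, a linear model with array weights and moderated errors, whose p-values were adjusted over all 5991 tested genes (also 0 at an unadjusted p under 0.05). In the same fit 1123 of the 5991 genes, or 18.7%, were called, 1057 of them lower and 66 higher in ZxZ (17.6% and 1.1%). That background itself was 0 of 5991 without array weights, or without any one of ZxZ replicates 3 and 4 and ZxM replicates 1 and 3. The ranges of the 4 ZxZ and 4 ZxM pools overlapped for all 9 genes, whereas they did not overlap for 13.1% of the tested genes and 10.2% of all measured genes. The exact permutation test of the group means (two-sided, 70 splits) gave p-values between 0.114 and 0.857, with 0.0286 as the smallest that the design allows. The fitted differences were negative for 5 genes and positive for 4, with a median of -0.14 on the log2 scale. Without array weights 6 were negative and 3 positive and the median was -0.062, and after quantile normalisation it was -0.019. The median of all tested genes was -0.094 (-0.078 without array weights and -0.013 after quantile normalisation), and 74.1% of them were negative as fitted. The plot of the levels shows every pool.

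**Figure D1:**
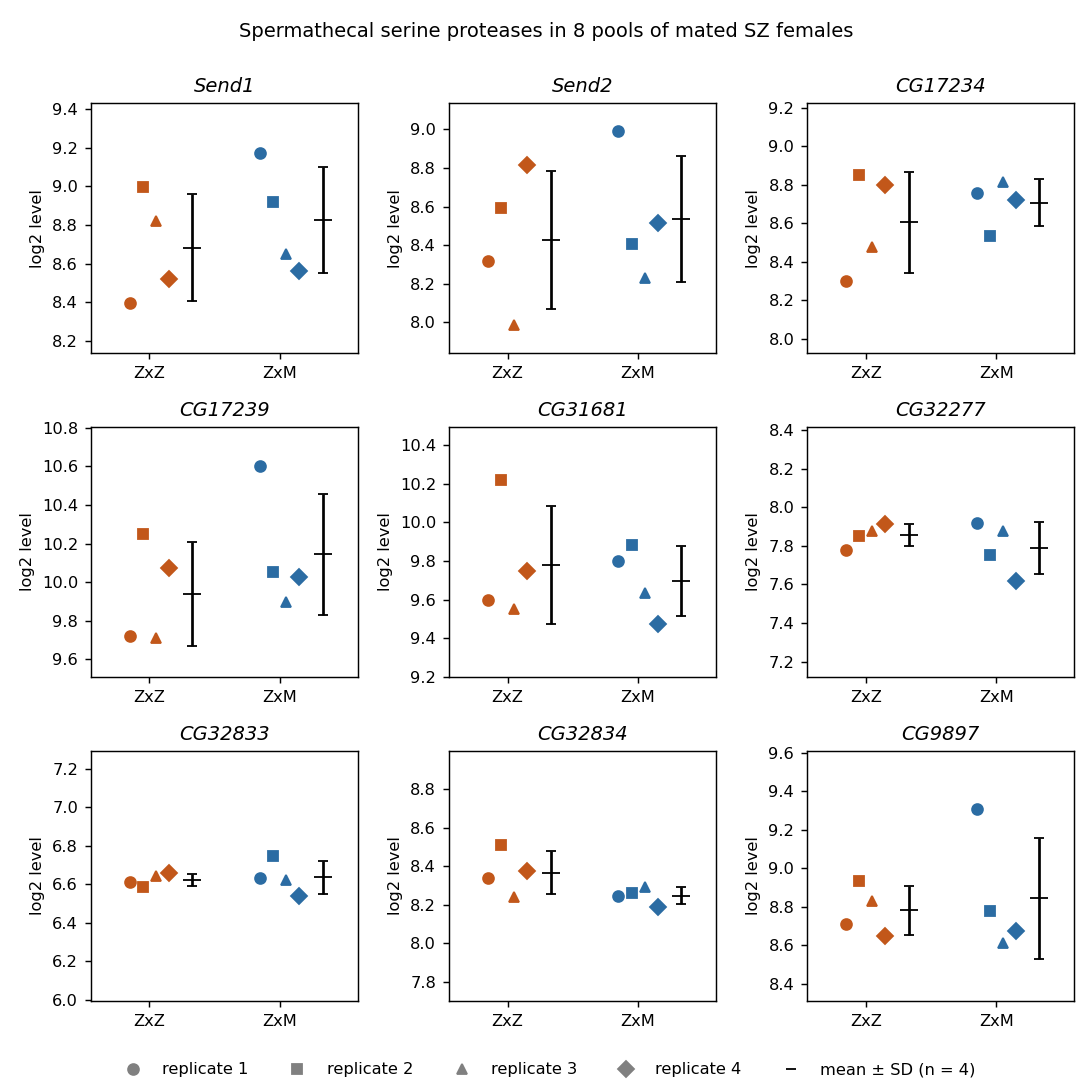
Log2 level of each gene (vertical axes, all spanning the same number of log2 units) in the 4 ZxZ pools (orange) and the 4 ZxM pools (blue), with the replicate number as the shape and the mean ± SD (n = 4) as the black bar. The 2 groups overlap in all 9 panels, and CG17239 and CG9897 have their highest value in ZxM replicate 1, at 10.60 and 9.31.

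Among the proteases, Send1 stood at 8.39, 8.998, 8.82 and 8.52 in the ZxZ pools, against 9.17, 8.92, 8.65 and 8.56 in the ZxM pools. The pools of both matings covered nearly the same range, and the lowest value was in ZxZ and the highest in ZxM. Send1 averaged 8.68 ± 0.276 in ZxZ and 8.83 ± 0.277 in ZxM (SD, n = 4 each). Its fitted difference was -0.19 (SE 0.155, 95% interval -0.53 to 0.15, adjusted p = 0.379 by limma), an interval that leaves room for ZxZ to be 0.694 to 1.11 times the level of ZxM. After quantile normalisation the difference was -0.092.

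Send2, the other spermathecal endopeptidase, was at 8.32, 8.59, 7.98 and 8.81 in ZxZ, against 8.99, 8.41, 8.23 and 8.51 in ZxM. It was the most variable of the 9 genes, with a 2.01-fold range over the 8 pools, and its extremes were ZxZ replicate 3 at the low end and ZxM replicate 1 at the high end. The means were 8.43 ± 0.358 in ZxZ and 8.54 ± 0.326 in ZxM (SD, n = 4 each). The fitted difference of -0.28 had an SE of 0.201 and an interval from -0.72 to 0.17 (adjusted p = 0.320 by limma). It was -0.11 without array weights, -0.13 after quantile normalisation, -0.14 without ZxZ replicate 3 and -0.083 without ZxM replicate 1.

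CG17239, a protease of the 2L cluster, came nearest to the threshold. Its pools were at 9.72, 10.25, 9.71 and 10.07 in ZxZ, against 10.60, 10.05, 9.90 and 10.02 in ZxM. ZxZ replicates 1 and 3 were lowest and ZxM replicate 1 stood above every other pool, while the remaining pools intermingled. The unweighted means were 9.94 ± 0.269 in ZxZ and 10.14 ± 0.314 in ZxM (SD, n = 4 each), and the exact permutation test of their difference, -0.21, gave p = 0.457. With array weights the difference was -0.34 (SE 0.169, interval -0.72 to 0.028, adjusted p = 0.168 by limma), or 0.788 times the ZxM level (0.609 to 1.02). ZxM replicate 1, the highest pool, had the largest weight of all arrays, 1.75, and ZxZ replicate 3, the lowest, the next largest, 1.61. CG17239 was called when arrays were centred on their median (-0.40, adjusted p = 0.0978 by limma), without ZxZ replicate 2 (-0.41, adjusted p = 0.0927) or without ZxM replicate 4 (-0.56, adjusted p = 0.0389), and without ZxM replicate 1 the difference was -0.10. The fits in which it was called also called 2503, 2009 and 2844 of the 5991 genes. Its difference was -0.17 after quantile normalisation, and over all alternatives its adjusted p ran from 0.0389 to 0.756.

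The neighbours CG17234 and CG31681 showed smaller differences. CG17234, between CG17239 and Send1 on the chromosome, was at 8.30, 8.85, 8.47 and 8.80 in ZxZ, against 8.76, 8.53, 8.81 and 8.72 in ZxM. The ZxZ pools spread more widely (SD 0.262) than the ZxM pools (SD 0.122), with the lowest and the highest value both in ZxZ, and the difference of -0.14 had an interval from -0.38 to 0.095 (adjusted p = 0.339 by limma). CG31681 was at 9.60, 10.22, 9.55 and 9.75 in ZxZ, against 9.80, 9.88, 9.63 and 9.47 in ZxM. ZxZ replicate 2 stood above every other pool. The difference was 0.043 (interval -0.25 to 0.34, adjusted p = 0.819 by limma), and it was negative without ZxZ replicate 2 (-0.068), ZxZ replicate 1 (-0.015) or ZxM replicate 4 (-0.044). After quantile normalisation it was 0.15, and that of CG17234 was -0.095.

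CG32277, the protease on 3L, varied little between pools. It was at 7.78, 7.85, 7.88 and 7.91 in ZxZ, against 7.92, 7.75, 7.88 and 7.62 in ZxM. All ZxZ pools lay inside the range of the ZxM pools. The difference was 0.048 (SE 0.0694, interval -0.10 to 0.20, adjusted p = 0.616 by limma), or 0.930 to 1.15 times the ZxM level on the compressed scale. Without ZxM replicate 1 it was 0.19 (SE 0.0645, adjusted p = 0.163 by limma), without ZxM replicate 3 it was 0.13 and without ZxM replicate 4 it was -0.038. After quantile normalisation it was 0.072.

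Of the homologues, CG32834 was the gene whose groups came closest to separating by level. Its pools were at 8.34, 8.51, 8.24 and 8.37 in ZxZ, against 8.25, 8.26, 8.29 and 8.19 in ZxM. Among the ZxZ pools 3 of 4 exceeded every ZxM pool, and ZxZ replicate 3 fell among the ZxM values. The means, 8.37 ± 0.112 in ZxZ and 8.25 ± 0.0430 in ZxM (SD, n = 4 each), gave the smallest p of the 9 genes in the exact permutation test, 0.114. The fitted difference was 0.10 (SE 0.0610, interval -0.032 to 0.24, adjusted p = 0.235 by limma), positive where those of Send1, Send2, CG17234, CG17239 and CG9897 were negative. After quantile normalisation the difference of CG32834 was 0.15 (unadjusted p = 0.0212, adjusted p = 0.461 by limma). It stayed positive without single pools, from 0.061 to 0.16, the latter without ZxZ replicate 3 (unadjusted p = 0.0225, adjusted p = 0.253 by limma).

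CG9897 was at 8.71, 8.94, 8.83 and 8.65 in ZxZ, against 9.31, 8.78, 8.61 and 8.68 in ZxM. A single pool, ZxM replicate 1, stood above the others, and the remaining 3 ZxM pools lay at or below the middle of the ZxZ range. The fitted difference was -0.16 (SE 0.146, interval -0.48 to 0.16, adjusted p = 0.419 by limma) with that pool and 0.10 without it, and it was -0.062 without array weights and -0.019 after quantile normalisation. CG32833 was at 6.61, 6.59, 6.64 and 6.66 in ZxZ, against 6.63, 6.75, 6.62 and 6.54 in ZxM. These values lay below the 25th percentile of every array (6.75 to 6.81), so that its transcript could not be told from no expression. CG32833 was also too constant to be tested, with an interquartile range of 0.0427 where at least 0.0908 was required. A fit over all 11983 genes put its difference at 0.0021 (SE 0.0450, adjusted p = 0.983 by limma).

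**Figure D2:**
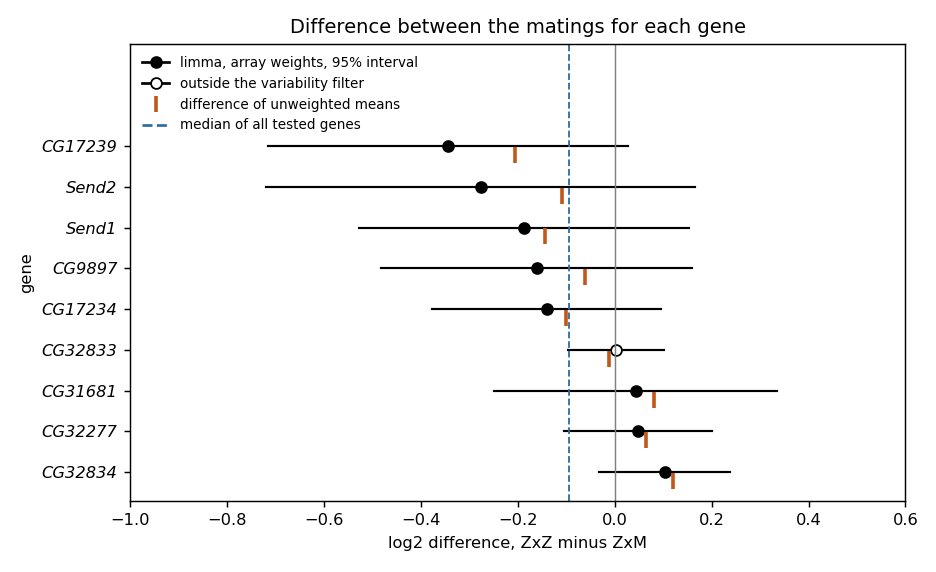
Log2 difference of each gene, ZxZ minus ZxM (horizontal axis), as fitted by limma with array weights (points, with 95% intervals; the open point is CG32833, outside the variability filter), with the difference of unweighted means as orange ticks and the median of all tested genes, -0.094, as the dashed line. Every interval includes 0, and CG17239 at -0.34 and Send2 at -0.28 have the lowest values and CG32834 at 0.10 the highest.

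The 4 genes with the lowest fitted differences moved with single pools. Without ZxM replicate 4, 4 of the 8 tested genes were called, all lower in ZxZ: CG17239, Send1 (-0.39, adjusted p = 0.0573 by limma), CG9897 (-0.39, adjusted p = 0.0595) and Send2 (-0.47, adjusted p = 0.0980). In that fit 2844 of the 5991 genes were called. Over all alternatives the largest adjusted p of these 4 genes was 0.973 (CG9897, after quantile normalisation). Without ZxM replicate 1, limma called 0 genes of the 5991 (1408 at an unadjusted p under 0.05), Send1 stood at 0.068 and CG9897 at 0.10, and the median of the 9 genes was 0.068 in place of -0.14.

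Most of these genes varied widely between pools of the same mating. The pooled SD within groups was 0.342 for Send2, 0.292 for CG17239, 0.276 for Send1, 0.252 for CG31681, 0.241 for CG9897 and 0.205 for CG17234. For these 6 genes that was 2.36 to 3.94 times the median SD of the genes within 0.5 log2 units of their own level, and above the 90th percentile of such genes. CG32277 (0.104), CG32833 (0.0638) and CG32834 (0.0847) were near other genes, at 1.23, 1.07 and 0.929 times the median of genes of their level. Among the 227 measured genes with a number in the protease family, Send2 ranked 10th by SD, CG17239 15th and Send1 16th. The median SD was 0.241 for the 9 genes and 0.0811 for the other 218. Of those 218 genes 90 averaged below 7, where differences are compressed, against 1 of the 9, so the 2 medians are not of genes of like level. Among other secreted products, the median SD was 0.251 for the 23 midgut serine proteases and 0.405 for the 11 eggshell genes. The same 6 genes therefore had wider intervals than most genes, whose median SE was 0.0600 among those tested. The filter itself selects on variation, so these spreads are given as a description.

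**Figure D3:**
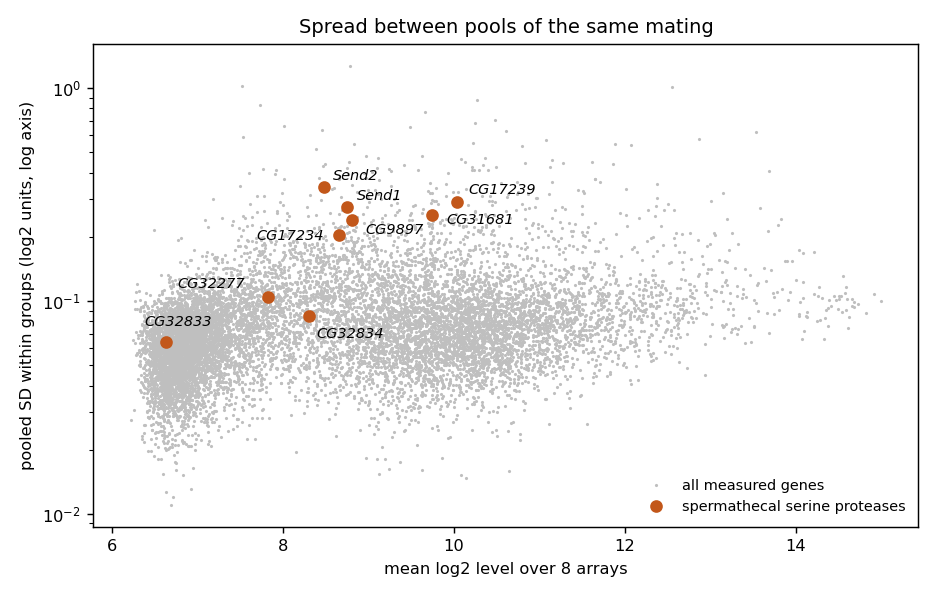
Pooled SD within the ZxZ and ZxM groups (vertical axis, log scale, log2 units) against the mean log2 level over 8 arrays (horizontal axis) for all 11983 measured genes (grey) and the 9 spermathecal genes (orange). Send2 (0.342), CG17239 (0.292), Send1 (0.276), CG31681 (0.252), CG9897 (0.241) and CG17234 (0.205) lie above most genes of their level, and CG32277, CG32833 and CG32834 lie among them.

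The variable genes tended to be high and low in the same pools. Of the 36 pairs among the 9 genes, 32 (88.9%) correlated positively over the 8 arrays, and 75% did so without ZxM replicate 1. Over all pairs the positive share was 54.2% for measured genes, and for tested genes 63.6%, beside 96.4% for the tested members. The median Pearson's r of the 36 pairs was 0.33, with a range from -0.25 to 0.87. The median over all pairs of measured genes was 0.060, and over all pairs of tested genes 0.21, beside 0.38 for the 28 pairs of the tested members. Taken as deviations from the group means, the values gave a median of 0.42 over the 36 pairs and 0.036 over all pairs of measured genes. For the 28 pairs of tested members that median was 0.47, beside 0.14 over all pairs of tested genes. An r of at least 0.5 occurred in 27.8% of the 36 pairs, beside 19.4% of the pairs of measured genes. For the 28 pairs of tested members that share was 35.7%, beside 28.1% of the pairs of tested genes, and for deviations from the group means 46.4% beside 23.5%. Exact permutation tests over the pairings gave an unadjusted p under 0.05 for 5 of the 36 pairs. After adjustment over the 36 pairs 0 remained at 0.05, and the smallest adjusted p was 0.0938.

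Send2 and CG17239 formed the tightest pair although they lie apart on 2L. Their r was 0.87 (exact permutation p = 0.00521, adjusted 0.0938) and their Spearman's rho 0.93 (exact permutation p = 0.00223, adjusted 0.0804) over the 8 arrays. The relation weakened to r = 0.65 without ZxZ replicate 3 and ZxM replicate 1, the pools farthest from the median of Send2, and it was 0.88 for the deviations from the group means. Both genes were highest in ZxM replicate 1 and lowest in ZxZ replicate 3.

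Send1 and CG9897, on different arms, followed with an r of 0.84 (exact permutation p = 0.00295, adjusted 0.0938) and a rho of 0.76 (exact permutation p = 0.0368, adjusted 0.550). Their r was 0.88 without ZxZ replicate 1 and ZxM replicate 1, and 0.84 within the groups. These genes are a protease and a homologue, and their relation did not rest on the pools farthest from the median of Send1. The same was not done with the pools farthest from the median of CG9897. Of the other 3 pairs with an unadjusted p under 0.05, CG17239 and CG9897 had an r of 0.77 (exact permutation p = 0.0341, adjusted 0.274), which was 0.28 without ZxM replicate 1 alone and 0.62 without ZxZ replicate 3 and ZxM replicate 1. CG31681 and CG32834, which shared a high ZxZ replicate 2, had an r of 0.77 (exact permutation p = 0.0327, adjusted 0.274) that was -0.086 without ZxZ replicate 2 and ZxM replicate 4. Send1 and CG17239 had an r of 0.72 (exact permutation p = 0.0380, adjusted 0.274) and 0.22 without ZxZ replicate 1 and ZxM replicate 1. The last 2 relations rested on the pools left out, and that of CG17239 and CG9897 leaned on ZxM replicate 1. The rho values of these 3 pairs were 0.40, 0.62 and 0.57 in the order given.

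**Figure D4:**
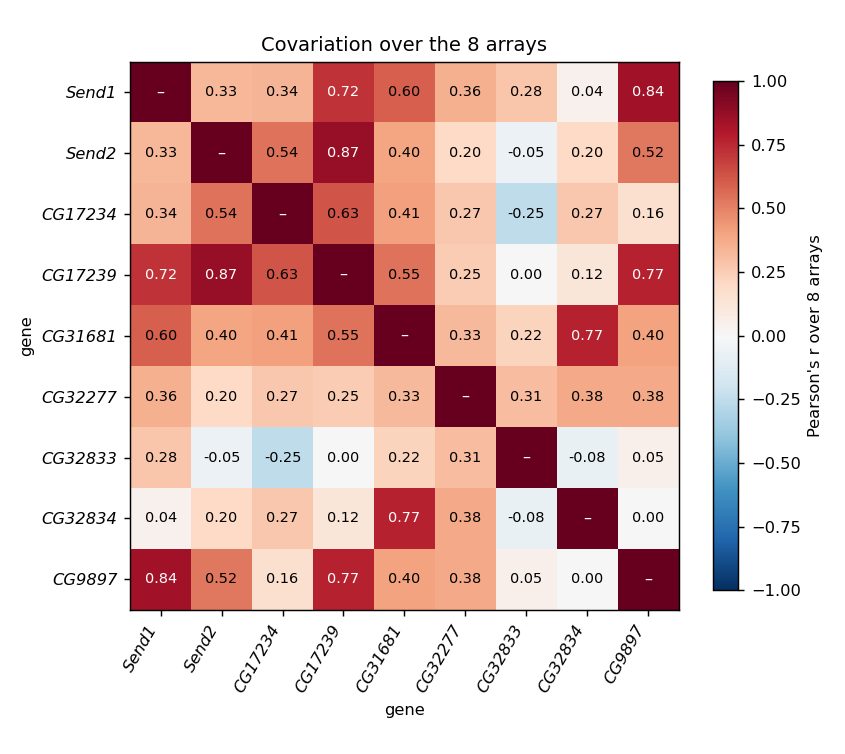
Pearson's r over the 8 arrays for each pair of the 9 genes (rows and columns), with red for positive and blue for negative values. Send2 with CG17239 (0.87) and Send1 with CG9897 (0.84) are the strongest pairs, and the row of CG32833, near the bottom of the scale, holds the lowest r, -0.25 with CG17234.

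Among the members of the 2L cluster, Send1, CG17234, CG17239 and CG31681, r was positive in all 6 pairs, from 0.34 to 0.72 with a median of 0.57. None of them passed adjustment over the 36 pairs, and Send1 with CG17234 was at -0.29 without ZxZ replicate 1 and ZxM replicate 1. The 3 genes of 2R had an r between -0.076 and 0.048, which includes the overlapping CG32833 and CG32834. The difference between the clusters was not tested. All 4 negative pairs involved the 2R genes, 3 of them CG32833, whose variation was that of a probe set near the lowest values. Ser12, the protease gene beside CG17239, had an r of 0.71 with it and was likewise highest in ZxM replicate 1, at 7.79. Its difference was -0.32 (SE 0.169, adjusted p = 0.191 by limma). Of the 14 measured neighbours of the 9 genes, 7 were tested and 3 of these were called by limma at 10% false discovery rate, beside 18.7% of all tested genes: CG33160, a protease gene beside CG32277, was higher in ZxZ (0.15, adjusted p = 0.0981), and CG33090 near Send2 (-0.21, adjusted p = 0.0901) and CG9896 beside CG9897 (-0.20, adjusted p = 0.0910) were lower. Neither Send2 nor CG9897 nor CG32277 was called beside them.

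To follow the 9 genes together, each was standardised over the 8 arrays and the standardised values were averaged per array. This mean profile was -0.70, 0.79, -0.44 and 0.25 in the ZxZ pools, against 0.94, 0.12, -0.21 and -0.75 in the ZxM pools. Each mating thus had a high pool and a low pool, ZxZ replicate 2 and ZxZ replicate 1 on one side and ZxM replicate 1 and ZxM replicate 4 on the other. In ZxZ replicate 2 and in ZxM replicate 1, 8 of the 9 genes were above their own mean, against 1 gene in ZxZ replicate 1 and 2 genes in ZxM replicate 4. The first principal component of the standardised values held 45.2% of their variance. CG17239 followed the mean profile most closely (r = 0.85, the gene itself being part of the mean), then CG31681 (0.81) and Send1 (0.78), and CG32833 least (0.26).

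**Figure D5:**
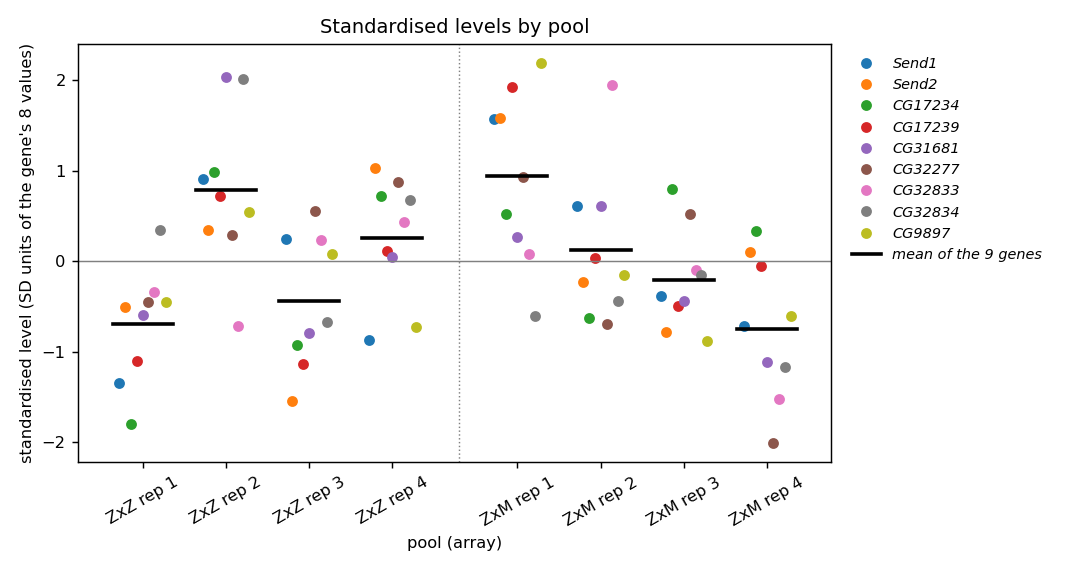
Standardised level of each gene (points, in SD units of its 8 values) in each pool (horizontal axis, ZxZ left of the dotted line and ZxM right of it), with the mean of the 9 genes as black bars. The bars are highest in ZxM replicate 1 (0.94) and ZxZ replicate 2 (0.79) and lowest in ZxM replicate 4 (-0.75) and ZxZ replicate 1 (-0.70).

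The 5 other genes most like this profile, by Pearson's r over the 8 arrays, were He (0.96), Fcp3C (0.95), Ir94g (0.94), Vm34Ca (0.93) and CG14187 (0.92). With 11983 genes and 8 arrays some high values arise in any search of this kind, and they are given as a description. He, a marker of blood cells, averaged 6.70 in ZxZ and 6.74 in ZxM, and Ir94g, an ionotropic receptor gene, 6.66 in both, near the lowest values of the arrays. Fcp3C, a follicle cell protein gene, was at 9.68, 10.57, 9.83 and 10.46 in ZxZ, against 10.82, 10.22, 10.28 and 9.85 in ZxM, with the same high and low pools as the profile. Vm34Ca encodes a protein of the vitelline membrane, the inner eggshell layer that ovarian follicle cells secrete. It was at 13.52, 13.98, 13.67 and 13.77 in ZxZ, against 14.21, 13.81, 13.66 and 13.66 in ZxM. None of the 3 that were tested was called: Fcp3C had a difference of -0.30 (adjusted p = 0.359 by limma), Vm34Ca of -0.19 (adjusted p = 0.313) and CG14187 of -0.27 (adjusted p = 0.311). Another numbered protease or homologue was 1 of the 50 nearest genes, near the 1.82% that this family made up of the measured genes.

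The vitelline membrane genes Vm32E (r = 0.82 with the profile) and Vm26Aa (0.79) also ranked high, at 34 and 58 of 11983, whereas the chorion genes of the outer eggshell lay between -0.27 for Cp15 and 0.39 for Cp19, and psd, another vitelline membrane gene, at 0.28. This division was seen after the values were known and was not tested. The list of 11 eggshell genes as a whole, averaged per array, had an r of 0.37 with the profile (exact permutation p = 0.367, adjusted 0.847 over 6 relations, rho 0.43), which was -0.26 without ZxZ replicate 2 and ZxM replicate 1. The mean of the midgut serine proteases (r = 0.26), of the yolk protein genes (0.26), of the male accessory gland transcripts (0.26) and of the regulators of the sperm storage organs (-0.079), and the 75th percentile of the array (0.046), gave adjusted p-values of 0.847 to 0.911 in the same exact tests, and none passed. The part of ovarian or other tissue content in the shared variation of the 9 genes was not tested beyond these values.

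The genes that make the storage organs were examined as a further list. Of 8 such regulators and products, 7 were measured, 3 were variable enough to be tested and 1 was called. The variability filter kept 5991 of all 11983 measured genes. Of all tested genes 18.7% were called. dsx, the transcription factor at the end of the sex determination cascade, was lower in ZxZ at 8.57 ± 0.166, against 8.76 ± 0.147 in ZxM (SD, n = 4 each; log2 difference -0.26, SE 0.0918, adjusted p = 0.0965 by limma). Hr39, the nuclear receptor required for spermathecal and parovarial development, had a difference of -0.13 (SE 0.0568) and did not pass (adjusted p = 0.129 by limma). peb and Gld, the glucose dehydrogenase of the spermathecae, were too constant to be tested, with differences of -0.094 and -0.035 in the fit over all genes. Hr39 and dsx are transcribed in other tissues as well. For dsx 2 probe sets were annotated and for Hr39 4, and the values are those of the most variable probe set of each. After quantile normalisation the difference of dsx was -0.15 (adjusted p = 0.546 by limma).

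In the wider protease family few genes were called. Of the 218 other numbered serine proteases and homologues that were measured, 102 were tested and 2 were called (1.96%, beside 18.7% of all tested genes). CG11836 was lower in ZxZ (-0.19, SE 0.0649, adjusted p = 0.0956 by limma) and CG33160 was higher. The median difference of the 102 genes was -0.015, beside -0.15 for the 8 tested spermathecal genes and -0.094 for all tested genes. CG7829 and CG6592, the next by p, had differences of 0.14 and 0.11 and did not pass (adjusted p = 0.160 and 0.121 by limma).

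Digestive serine proteases of the midgut, the Jonah and trypsin genes, were measured as another set of secreted trypsin-like enzymes. By limma 0 of the 22 tested of 23 measured were called (1 at an unadjusted p under 0.05), beside 18.7% of all tested genes. Their median difference was -0.13, beside -0.094 for all tested genes. The smallest p among the midgut genes was that of Jon99Ci (-0.17, SE 0.0748, adjusted p = 0.131 by limma). Jon25Bi (-0.24), Jon25Bii (-0.39) and Jon25Biii (-0.20) followed and did not pass either. Their pairs correlated with a median r of 0.58, above the 0.33 of the spermathecal genes. The 218 other numbered genes, 90 of which averaged below 7, had a median of 0.017. These medians were not tested against each other, and the part of shared tissue content in them was not tested.

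Of 10 measured proteases of immune and developmental cascades 2 were tested and 0 called by limma (0 at an unadjusted p under 0.05), beside 18.7% of all tested genes. Sb, ndl, ea and Hayan, which had the smallest p-values of that list, were too constant to be tested and ranged from -0.13 to 0.053 in the fit over all genes. Serpins are suicide inhibitors of serine proteases, and 9 of 29 measured serpins were tested. Spn28Dc, which restrains melanisation, was lower in ZxZ at 8.12 ± 0.126, against 8.39 ± 0.123 in ZxM (SD, n = 4 each; log2 difference -0.27, SE 0.0786, adjusted p = 0.0874 by limma). Spn88Eb had a difference of 0.13 and did not pass (adjusted p = 0.162 by limma), and Spn42Da and Acp76A, a serpin of the seminal fluid, were not tested, with differences of -0.11 and 0.094 in the fit over all genes. The other 8 tested serpins were not called, so that the called share was 11.1%, beside 18.7% of all tested genes.

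The lists of other tissues served to describe what else the pools held. For comparison, 18.7% of all tested genes were called, and the median difference of all tested genes was -0.094. Of 15 measured male accessory gland genes 6 were tested and 1 was called: SP, which encodes the sex peptide, was higher in ZxZ at 6.74 ± 0.0508, against 6.60 ± 0.0342 in ZxM (SD, n = 4 each; log2 difference 0.16, SE 0.0460, adjusted p = 0.0874 by limma), a level near the bottom of the scale in both. The mean of that list ran from 6.70 to 6.74 in ZxZ and from 6.66 to 6.72 in ZxM. Acp32CD (0.11) and Acp26Aa (0.094) did not pass, and Acp95EF was not tested (0.068 in the fit over all genes). Of 11 testis genes 3 were tested and 0 called by limma (0 at an unadjusted p under 0.05), with a difference of 0.063 for Mst87F, while djl, Mst98Ca and Mst98Cb were not tested (0.057 to 0.058 in the fit over all genes). Yp3 was the single yolk protein gene of 3 that passed, higher in ZxZ (0.17, SE 0.0580, adjusted p = 0.0963 by limma), beside Yp1 (0.15, adjusted p = 0.136) and Yp2 (0.10, adjusted p = 0.267). Of the 11 eggshell genes 0 were called by limma (2 at an unadjusted p under 0.05), with a median of -0.24 and differences of -0.24 for Cp36, -0.22 for Cp38, -0.39 for Cp19 and -0.42 for Cp7Fc. The called genes of all these lists kept their sign when arrays were quantile normalised or centred on their median, but after quantile normalisation or with array weights dropped no gene on the arrays was called.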

How the data were processed

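Groups and replicate numbers came from the sample titles. The deposited log2 values had been made by the authors with VSN (background correction, calibration between arrays and a generalised logarithm) and summarised with RMA in affy under R 2.8.1, per their methods and processing notes. VSN compresses differences between low values. Scanner files were not used here, so detection above background is not known. Precision is limited by the number of arrays, since array values carry no counts. Of 18952 probe sets, 183 were controls, 13647 had 1 gene in the platform annotation, 402 several, and 4720 were not listed. Symbols were updated by Entrez number. Each of 11983 genes was represented by its most variable probe set, and of these genes the 5991 more variable (upper 50% of interquartile ranges) were tested.

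ZxZ minus ZxM was fitted over all 8 arrays with limma 3.58.1 under R 4.3.3, using REML array weights, moderated errors (eBayes) and two-sided p-values adjusted by Benjamini and Hochberg's method. Genes were called at 10% FDR. The code was first tested on simulated data. The fit, with no covariate, follows the study's methods, whose cut-off of 0.5 on the interquartile range was read as a quantile here. Exact permutation tests and correlations used numpy 2.4.6, ranks scipy 1.17.1, and plots matplotlib 3.10.9. The alternatives dropped the array weights or the variability filter, took a range of at least 0.5 in log2 units, took the probe set of highest mean, quantile normalised or median-centred the arrays, left out the lowest 25% of probe sets, added the replicate number as a block, used a trend and robust prior, or left out each array. Named genes are all 9 members, the 5 other genes nearest to their mean profile, and of each list (storage organ regulators, midgut proteases, immune and developmental proteases, serpins, accessory gland, testis, yolk, eggshell, numbered protease family) up to 4 with the smallest p of the unfiltered fit. Neighbouring genes come from the gene table, and those named, like Vm26Aa, Vm32E, psd and Cp15, were chosen after their values were seen. The members and lists were chosen with earlier results of these data known. Replicates are labelled biological. Whether replicate numbers mark a shared day or batch is not given in the sources used here.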

Additional observations from a re-analysis of the deposited data

How the results depend on the processing

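Of the 8 tested genes 0 were called as reported, and also without array weights, without the variability filter, with the probe set of highest mean, after quantile normalisation, with the lowest 25% of probe sets left out (which drops CG32833), with a trend and robust prior and with the replicate number as a block. Centring arrays on their median gave 1 (CG17239), and leaving out single pools gave 0 to 4. An interquartile range of at least 0.5 leaves 51 genes and none of the 9, so it gave no value. Over all genes limma called 1123 as reported, but 0 when array weights were dropped (where 1365 had an unadjusted p under 0.05), 0 with no filter (2529), 0 after quantile normalisation (584), 1 with the replicate block (1606) and 2503 after centring. Without ZxZ replicate 3 or 4, or ZxM replicate 1 or 3, it called 0 (1080 to 1408 at an unadjusted p under 0.05), and 2009 to 2844 without each of the others. The median difference was -0.062 without array weights, -0.019 after quantile normalisation and -0.17 after centring, where the median of all tested genes was -0.078, -0.013 and -0.14, against -0.14 and -0.094 as reported. It ran from -0.174 to 0.0678 without single pools, the upper value without ZxM replicate 1. The median correlation ran from 0.295 to 0.384 without single pools, and was 0.42 for deviations from group means. The study's methods describe both matings in each of 4 replicates. Deviations of same-numbered pools correlated at 0.14, -0.26, -0.20 and 0.16, and those of differently numbered pools at -0.20 to 0.29. These values cannot show whether the numbers pair the samples. With replicate number and group both taken out as a block the median correlation was 0.60. That setting leaves few degrees of freedom. No median over all genes stands beside it, so 0.60 cannot be set against the other medians.

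Signs turned for 5 genes. CG32833 stood at -0.0119 without array weights, -0.00715 after quantile normalisation and -0.0297 after centring. Without single pools it ran from -0.0213 to 0.0331, CG31681 from -0.0683 to 0.183, CG32277 from -0.0377 to 0.187, Send1 from -0.387 to 0.0678 and CG9897 from -0.392 to 0.0996. The signs of CG32833 turned without ZxZ replicate 3 or 4 or ZxM replicate 4, of CG31681 without ZxZ replicate 1 or 2 or ZxM replicate 4, of CG32277 without ZxM replicate 4, and of Send1 and CG9897 without ZxM replicate 1. The cause of these shifts was not tested.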
